A study of Homo sapiens with 6 samples.

Results

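The interferon-stimulated and RNA sensing genes described here are 49 named human genes, grouped by what they are known to do into 8 sensors of viral or misplaced nucleic acid with their adaptor and kinase, 10 regulators of the interferon response and 31 effectors. They were taken by gene name from a list. All 49 had a row in the gene count table of 33981 genes, and 45 of them passed the filter on low counts, among 19182 genes tested. The study asked what loss of NFIC, a transcription factor of the nuclear factor I family, does in acute myeloid leukemia (AML) cells. THP-1, an established monocytic AML cell line, was infected with lentivirus carrying either a scrambled shRNA (3 samples) or an shRNA against NFIC (3 samples, NFIC KD), sorted for GFP 4 days later and sequenced as bulk RNA. The labels call the control a scrambled shRNA, the name used here, and so do the study's results and figure legends for this RNA. The study's methods for it describe a vector with GFP alone instead, so whether the control expressed a hairpin is uncertain. Both groups carry the integrated virus and its GFP, the medium is IMDM in the labels and RPMI in the study's methods, each with serum and antibiotics, and no interferon or other stimulus is named in the labels for either group. The comparison is of 1 cell line, the knockdown is by 1 hairpin, which the study names sh494 and the labels do not name, and the labels do not say whether the 3 samples of a group were separate cultures, so a p-value here measures only the spread between these samples.

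Interferons are secreted proteins that bind receptors on the cell surface and, through JAK kinases, activate STAT proteins. STAT2 with IRF9 is part of a complex that binds the interferon-stimulated response element (ISRE) of many genes, and many of those gene products bind, cut or modify viral RNA or block virus entry and release. RNA sensors such as RIG-I and MDA5 act upstream, since they detect RNA in the cytosol and signal through MAVS to start interferon production, and monocytic cells are known to carry both arms.

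Sequencing depth was similar, at 20369543 to 24809720 counts per sample. NFIC itself, in CPM (counts scaled to library size, with TMM factors), was at 42.1, 41.4 and 42.2 in scrambled replicates 1 to 3. It was at 19.4, 22.3 and 21.4 CPM in NFIC KD replicates 1 to 3, a 0.50-fold level (log2 fold change −0.99 ± 0.07 SE, adjusted p = 3.73e-09, edgeR). Of the same family, NFIX was lower too, from a mean of 24.7 to 16.9 CPM (−0.54 ± 0.08, adjusted p = 1.59e-05, edgeR). NFIA was scarce, with 14, 17 and 15 counts against 3, 0 and 4, and was lower (−2.635 ± 0.56, adjusted p = 0.000633, edgeR). All 16 markers of monocytic cells that were checked were above 5 CPM in both groups, and their summed level was 2975 to 3177 CPM in the scrambled and 2930 to 2958 CPM in the NFIC KD samples. Every NFIC KD sum was thus below every scrambled sum. Of the 16 markers, 12 (75%, against 59.9% of all genes) passed the test described below, 5 as higher and 7 as lower in NFIC KD. CD4 went from a mean of 456 to 278.5 CPM and CEBPA from 595 to 419 CPM. CSF1R went from 219 to 146 CPM, CSF3R from 203 to 144 CPM and MPO from 58.1 to 48.6 CPM. PTPRC rose from 169 to 187 CPM and CEBPB from 126 to 149 CPM. CD68, a lysosomal protein of macrophages, went from a mean of 261 to 130.0 CPM (log2 fold change −1.01) and CD33, a myeloid surface receptor, from 33.9 to 17.4 CPM (−0.97), whereas the integrin ITGAM went from 50.4 to 100.1 CPM (0.99), the lysozyme gene LYZ from 572 to 940 CPM (0.72) and CD14 from 7.16 to 11.2 CPM (0.65). Of the 14 markers of other cell types with a row, CD79B was the 1 above 10 CPM in a group, while CD3D, HBB and HBA1 had at most 3 counts in any sample. The summed level of the lists for other cell types was lower in NFIC KD, at 7.17 to 7.43 against 2.25 to 2.93 CPM for T and NK cells, 23.1 to 25.1 against 16.4 to 17.9 CPM for B cells, 5.83 to 6.59 against 1.65 to 1.91 CPM for erythroid cells and megakaryocytes, and 5.32 to 6.14 against 0.997 to 2.03 CPM for epithelial cells. The part of the monocytic and the other markers in the results below was not tested.

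NFIC KD samples held more transcript of 22 of the 45 interferon genes tested and less of 10, while 13 did not pass the threshold (an adjusted p under 0.05 with edgeR's quasi-likelihood test, adjusted over all genes tested). The knockdown moved a large part of the transcriptome in both directions. Over all 19182 genes, 59.9% passed the same threshold, 29.6% as higher and 30.3% as lower, against 48.9% higher and 22.2% lower among the interferon genes. The median log2 fold change was 0.24 for the interferon genes and −0.01 for all genes. In 32 of the 45 genes (71.1%) no NFIC KD sample fell within the range of the scrambled samples, against 65.2% of all genes. Of the 45 genes, 9 (20%) passed with a log2 fold change beyond 1 in size, against 11.9% of all genes. By role, among the regulators 7 of 10 rose and 1 fell (median log2 fold change 0.44), among the effectors 12 of 28 tested rose and 7 fell (median 0.20), and among the sensors 3 of 7 tested rose and 2 fell (median 0.02). Summed over its genes, the regulator group went from 297 to 322 CPM in the scrambled samples to 481 to 487 CPM in the NFIC KD samples, whereas the sensor group went from 254 to 262 CPM down to 228 to 236 CPM and the effector group from 446 to 460 CPM down to 418 to 427 CPM. From each role the gene with the largest change in CPM was then left out, which for the sensors and effectors was the largest fall. Without IFI16 the sensors were at 190 to 201 CPM in the scrambled and 208 to 211 CPM in the NFIC KD samples. Without BST2 the effectors were at 364 to 380 CPM and 376 to 389 CPM, ranges that overlap. BST2 was not the only large fall among the effectors, since MX2 went from a mean of 61.5 to 39.6 CPM. Without STAT2 the regulators were still higher in NFIC KD, at 141 to 143 CPM against 222 to 250 CPM. Whether the roles differed from each other was not tested. In bulk RNA, a lower level may come from less RNA per cell or from fewer cells that carry the transcript, and these cannot be told apart. NFIC KD replicate 3 was the highest sample of its group for 25 of the 45 genes (55.6%, against 38.3% of all genes). The part of this library is given beside the results whose call changed without it. Other rises in which it was the highest sample, such as HERC5, PARP9 and SAMD9, kept their calls without it. HERC5 was then at a log2 fold change of 1.78.

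**Figure D1:**
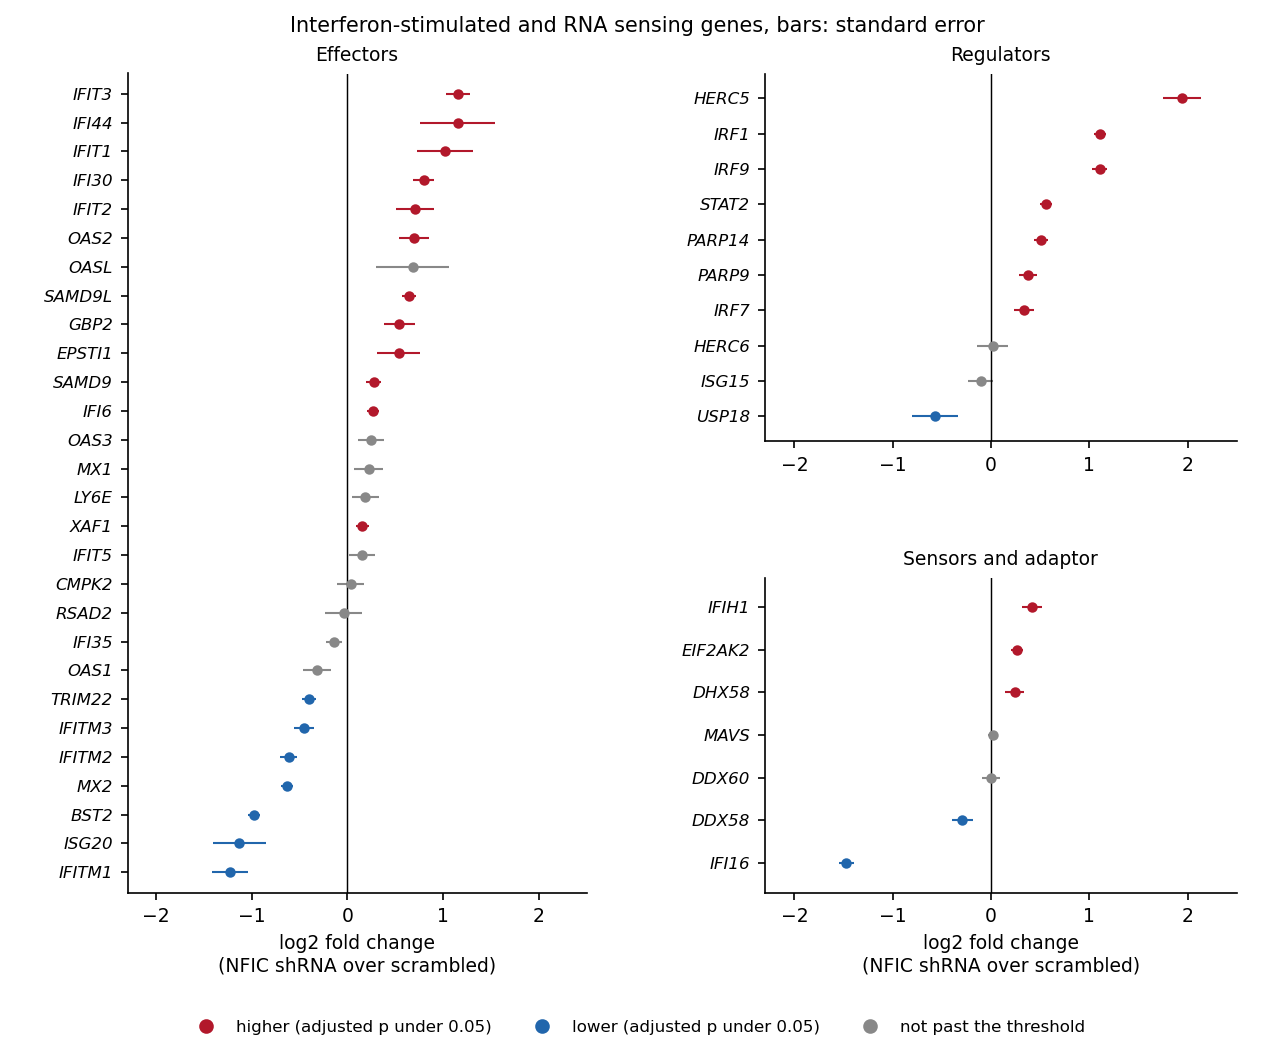
Log2 fold change of NFIC KD over scrambled samples (horizontal axis) with its standard error (bar) for each of the 45 interferon-stimulated and RNA sensing genes tested, in 3 panels by role and ordered by value. Red marks the 22 genes that were higher and blue the 10 that were lower at an adjusted p under 0.05, and grey the 13 that did not pass. Most regulators lie right of 0, with HERC5 farthest at 1.94, while the sensor IFI16 lies farthest left at −1.47.

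Among the sensors listed as members, the DNA sensor fell steeply and the RNA sensors moved little. IFI16 (ENSG00000163565, chr1:158999968-159055155 on GRCh38), a nuclear and cytosolic sensor of double-stranded DNA, had the largest decrease of the 45 genes. It was at 61.4, 63.6 and 64.2 CPM in scrambled replicates 1 to 3 and at 22.4, 25.3 and 20.5 CPM in NFIC KD replicates 1 to 3. All NFIC KD samples were far below all scrambled samples, and the level was 2.77-fold lower (log2 fold change −1.47 ± 0.07 SE, adjusted p = 5.82e-11). IFIH1 encodes MDA5, which detects long double-stranded RNA. Its level was 8.97, 8.45 and 9.99 CPM in scrambled and 12.1, 12.2 and 12.4 CPM in NFIC KD samples, without overlap (1.34-fold higher, log2 fold change 0.42 ± 0.10, adjusted p = 0.00193). EIF2AK2, the kinase PKR that halts translation when it binds double-stranded RNA, was at 41.3, 38.9 and 41.4 CPM against 48.3, 46.9 and 50.8 CPM. These groups did not overlap either (1.20-fold higher, adjusted p = 0.0016).

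DDX58, the gene of RIG-I, which detects RNA with a 5′ triphosphate, went the other way from IFIH1 by a small step. It was at 9.66, 9.83 and 10.5 CPM in scrambled samples and 8.20, 8.40 and 7.84 CPM in NFIC KD samples. The groups did not overlap, and the log2 fold change was −0.29 ± 0.11 (adjusted p = 0.0239). DDX58 shares 43.2% of its exon bases with ENSG00000288684, which was not analysed here. The call ended without scrambled replicate 3 (adjusted p = 0.0887), NFIC KD replicate 1 (0.0599) or NFIC KD replicate 3 (0.0703), and in DESeq2 (0.108). The third RIG-I-like receptor, DHX58 (LGP2), which lacks the signaling domains of the other two, was at 9.34, 9.63 and 10.3 CPM against 11.9, 11.6 and 11.1 CPM. No sample overlapped, but its call was the least firm of the sensors (log2 fold change 0.24 ± 0.10, adjusted p = 0.0457) and ended when any 1 scrambled replicate or NFIC KD replicate 1 or 2 was left out (adjusted p = 0.0581 to 0.148). It also ended in DESeq2 (0.112), under upper-quartile normalization (0.123), with no filter on low counts (0.0895) and with at least 10 counts asked of every sample (0.0565).

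MAVS, the mitochondrial adaptor shared by RIG-I and MDA5, was the most abundant sensor transcript per length in the NFIC KD samples and differed little. Its levels of 118, 110 and 113 CPM in scrambled and 116, 119 and 111 CPM in NFIC KD samples overlapped (log2 fold change 0.02 ± 0.05, adjusted p = 0.756). DDX60, a helicase linked to RIG-I signaling, was at 13.5, 13.2 and 13.1 CPM against 13.2, 12.7 and 14.04 CPM, with overlapping groups and a log2 fold change of 0.00 ± 0.09 (adjusted p = 0.991). TLR3, the endosomal receptor for double-stranded RNA, had 1, 0 and 1 counts in the scrambled and 0, 0 and 1 counts in the NFIC KD samples, at most the floor of 3 counts per library, and was not tested.

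**Figure D2:**
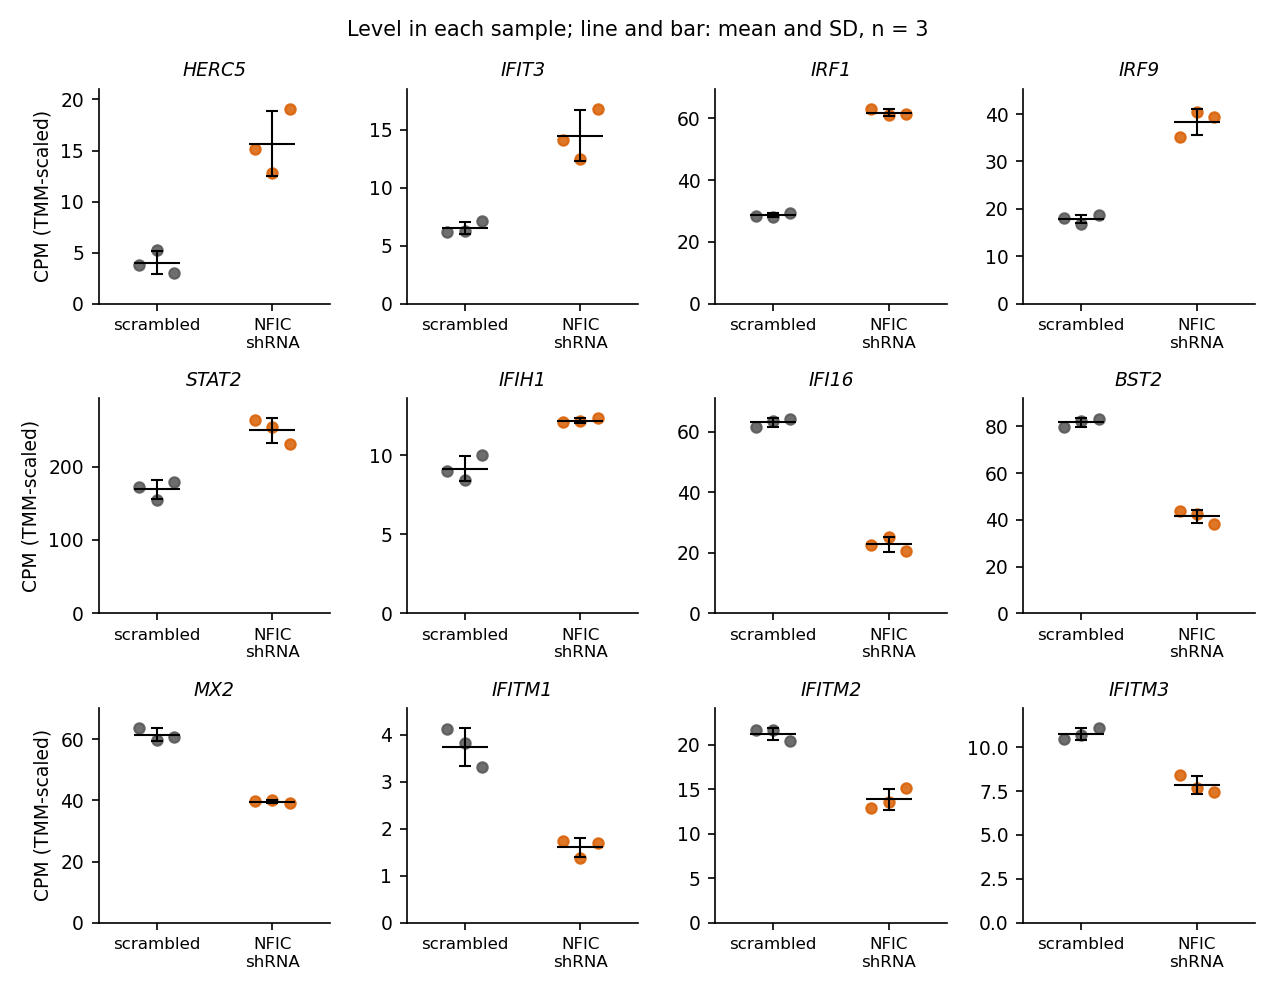
Level of 12 interferon-stimulated and RNA sensing genes in each sample, in TMM-scaled CPM (vertical axes from 0), for the 3 scrambled (grey) and 3 NFIC KD samples (orange); the line is the mean and the bar 1 SD. The 3 points of a group run from replicate 1 on the left to replicate 3 on the right. In none of the 12 genes do the groups overlap: HERC5, IFIT3, IRF1, IRF9, STAT2 and IFIH1 are higher and IFI16, BST2, MX2 and the 3 IFITM genes lower in the NFIC KD samples.

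The regulators that carry the interferon signal to DNA rose together. IRF9 (ENSG00000213928, chr14:24161234-24168043), the DNA-binding partner of STAT2, was at 18.1, 16.9 and 18.7 CPM in scrambled and 35.2, 40.5 and 39.4 CPM in NFIC KD samples. Every NFIC KD sample was above every scrambled sample (2.15-fold, log2 fold change 1.11 ± 0.08, adjusted p = 2.89e-09). IRF1 (ENSG00000125347, chr5:132440440-132508719), the regulator best known from the response to interferon gamma, was at 28.4, 28.2 and 29.3 CPM against 63.2, 60.9 and 61.5 CPM. The spread within either group was small beside the step between them (2.16-fold, log2 fold change 1.11 ± 0.06, adjusted p = 1.44e-10). STAT2 was the most abundant regulator per length, at 172, 155 and 179 CPM against 263, 254 and 231 CPM. It rose 1.48-fold without overlap (log2 fold change 0.56 ± 0.06, adjusted p = 5.35e-07). IRF7, the regulator that amplifies interferon alpha production, was at 13.6, 10.8 and 12.3 CPM against 13.9, 15.9 and 16.4 CPM. The lowest NFIC KD sample was just above the highest scrambled sample (1.26-fold, adjusted p = 0.00974), and without scrambled replicate 2 the log2 fold change of 0.34 became 0.25 (adjusted p = 0.0595).

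Some of the reads counted for IRF9 and IRF1 could belong to neighbors. On GRCh38, IRF9 shares 23.9% of its exon bases with the same-strand transcript AL136295.5 (log2 fold change 0.52), and IRF1 shares 22.9% with its antisense gene IRF1-AS1 (log2 fold change 0.95). The library kit, as described, does not keep strand and no strand setting is given, so reads of an overlapping pair cannot be told apart.

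HERC5 (ENSG00000138646, chr4:88457119-88506163), the main ligase that attaches the ubiquitin-like protein ISG15 to other proteins in human cells, had the largest increase of the 45 genes. Its raw counts were 83, 130 and 64 in scrambled and 312, 297 and 441 in NFIC KD samples, which is 3.84, 5.28 and 2.99 CPM against 15.1, 12.8 and 19.1 CPM. The lowest NFIC KD sample was well above the highest scrambled sample, and the level was 3.85-fold higher (log2 fold change 1.94 ± 0.19, adjusted p = 1.54e-06). HERC5 lies on chromosome 4 beside its close relative HERC6, which was at 4.72, 4.06 and 4.25 CPM against 4.56, 3.71 and 4.90 CPM. HERC6 overlapped between the groups, with a log2 fold change of 0.02 ± 0.15 (adjusted p = 0.938).

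HERC5 was also the only 1 of the 38 interferon genes with an entry in RefSeq's promoter table (GRCh38.p14, from 250 bases before to 50 after each start) that held a full nuclear factor I site, searched as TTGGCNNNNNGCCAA on both strands. Over the whole table, 10 of 35116 promoters (0.0285%) held one. The site lies 156 to 142 bases before the HERC5 start and is given in capitals in the first line, and the ISRE core nearest the start is given in capitals in the second, both on the + strand. This match was noticed after the HERC5 values were known, and it describes letters only, since binding was not measured here. The site was searched as that of the nuclear factor I family, and NFIX and NFIA were lower in these samples as well as NFIC.
HERC5, chr4:88456943-88457002, nuclear factor I site: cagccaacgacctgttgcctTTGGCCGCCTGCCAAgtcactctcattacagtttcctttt
HERC5, chr4:88457020-88457079, ISRE core: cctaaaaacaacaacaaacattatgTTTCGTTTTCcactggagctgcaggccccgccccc

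The ISG15 system did not move as 1 unit. ISG15, the modifier itself, was at 6.52, 6.38 and 6.21 CPM against 5.68, 5.34 and 6.72 CPM, with overlapping groups (log2 fold change −0.11 ± 0.13, adjusted p = 0.499). USP18, the protease that removes ISG15 and also restrains the interferon receptor, had only 38, 45 and 49 counts in scrambled and 24, 28 and 36 counts in NFIC KD samples (1.76, 1.83 and 2.29 against 1.16, 1.21 and 1.56 CPM). The groups did not overlap (1.49-fold lower, log2 fold change −0.57 ± 0.23, adjusted p = 0.0423). This call ended without scrambled replicate 2 or 3 or NFIC KD replicate 1 or 2 (adjusted p = 0.0504 to 0.162), in DESeq2 (0.172) and with no filter on low counts (0.069), and 18.8% of the 75-base stretches of USP18 transcripts also occur in other genes.

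PARP9 and PARP14, neighbors on chromosome 3 whose products modify proteins in interferon-treated macrophages, both rose. PARP14 had a log2 fold change of 0.51 ± 0.07 (46.9 ± 1.6 against 66.7 ± 6.1 CPM, SD, n = 3, adjusted p = 6.03e-06) and PARP9 one of 0.37 ± 0.09 (19.8 ± 0.67 against 25.6 ± 3.2 CPM, adjusted p = 0.00174).

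Among the effectors, the IFIT genes, whose products bind viral RNA that lacks the host cap marks, rose or did not pass the test, and none fell. IFIT3 was at 6.15, 6.26 and 7.10 CPM in scrambled and 14.1, 12.5 and 16.8 CPM in NFIC KD samples. The groups were well apart (2.23-fold, log2 fold change 1.16 ± 0.12, adjusted p = 3.63e-07). IFIT1 was scarce, with 20, 13 and 14 counts against 27, 31 and 37 counts. Its NFIC KD samples were still all above its scrambled samples (0.925, 0.528 and 0.654 against 1.31, 1.34 and 1.60 CPM, 2.03-fold, adjusted p = 0.006). IFIT2 was at 2.82, 3.01 and 2.85 CPM against 3.49, 4.35 and 6.28 CPM. The groups did not overlap but the NFIC KD samples spread widely, and without NFIC KD replicate 3 the log2 fold change of 0.71 ± 0.20 (adjusted p = 0.00502) became 0.45 (adjusted p = 0.0454). IFIT5, the fourth gene of this cluster on chromosome 10, was at 5.43 ± 0.63 against 6.01 ± 0.17 CPM and overlapped (log2 fold change 0.15, adjusted p = 0.351).

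The IFITM genes, a cluster on chromosome 11 whose membrane proteins block the fusion of viruses with the cell, all fell. IFITM1 was at 4.11, 3.82 and 3.32 CPM in scrambled and 1.75, 1.38 and 1.69 CPM in NFIC KD samples (2.34-fold lower, log2 fold change −1.23 ± 0.19, adjusted p = 2.65e-05). IFITM2, the most abundant of the cluster per length, was at 21.6, 21.7 and 20.5 CPM against 12.9, 13.5 and 15.2 CPM (1.53-fold lower, adjusted p = 1.08e-05). IFITM3 was at 10.5, 10.7 and 11.1 CPM against 8.44, 7.67 and 7.45 CPM (1.37-fold lower, adjusted p = 0.00137). None of the 3 overlapped between the groups, and their log2 fold changes kept their sign under each of the 15 alternative settings. These genes are near copies of each other. Of the 75-base stretches of IFITM1, IFITM2 and IFITM3, 23.1%, 14.3% and 11.2% occur in some other gene. The largest share with 1 other gene was 10.7% (IFITM1 with IFITM3), 9.78% (IFITM2 with IFITM1) and 9.23% (IFITM3 with IFITM1). IFITM1 also shares 21.1% of its exon bases with the same-strand gene ENSG00000288681, which has no row in the gene count table. A part of the reads may thus have been counted for the wrong member or not at all.

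In the OAS and the MX family 1 gene passed and the others did not, and differences between members were not tested. OAS enzymes make a second messenger when they bind double-stranded RNA, and MX proteins are GTPases that trap viral particles. OAS2 was higher, with 4.45 ± 0.98 against 7.24 ± 0.55 CPM (SD, n = 3, log2 fold change 0.69 ± 0.16 SE, adjusted p = 0.000953). OAS1 was at 5.40 ± 0.66 against 4.33 ± 0.22 CPM (log2 fold change −0.32 ± 0.14) and did not pass (adjusted p = 0.0689), although its groups did not overlap. It passed without scrambled replicate 2 (0.042) and under upper-quartile normalization (0.0362). OAS3 and OASL had log2 fold changes of 0.25 (adjusted p = 0.123) and 0.68 (adjusted p = 0.137). Both passed without NFIC KD replicate 2, at 0.39 (0.0163) and 1.00 (0.0291).

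MX2 fell and MX1 did not follow it. MX2, whose product restricts HIV-1 at the nuclear pore, was at 63.8, 59.7 and 60.9 CPM in scrambled and 39.6, 40.1 and 39.1 CPM in NFIC KD samples. The NFIC KD samples lay within 1 CPM of each other and far below the rest (1.55-fold lower, log2 fold change −0.63 ± 0.06, adjusted p = 8.05e-08). MX1 was at 3.87 ± 0.25 against 4.52 ± 0.46 CPM, with overlapping groups (log2 fold change 0.22, adjusted p = 0.211).

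The ratio of 2 neighboring genes within a sample puts members of a family side by side without any scaling between libraries. The ratios were chosen after the values were seen. HERC5 had 0.814, 1.30 and 0.703 reads for each HERC6 read in scrambled and 3.32, 3.45 and 3.90 in NFIC KD replicates 1 to 3. IFIT3 to IFIT5 went from 1.00, 1.24 and 1.39 to 2.37, 2.13 and 2.71. OAS2 to OAS1 went from 0.541, 1.03 and 0.964 to 1.89, 1.5 and 1.65. MX1 to MX2 went from 0.0587, 0.0619 and 0.0683 to 0.125, 0.114 and 0.103. In all 4 ratios every NFIC KD sample was above every scrambled sample. An exact two-sided permutation test of 3 against 3 samples then gives p = 0.1, the smallest value this design allows. Since the pairs and the direction of each ratio were picked from these same values, this p cannot decide whether the members of a pair differed. The ratios are a description only.

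BST2 and ISG20, both antiviral effectors, also fell. BST2 (ENSG00000130303, chr19:17402939-17405630) encodes tetherin, which holds budding virus on the cell surface. It was at 79.7, 82.5 and 83.1 CPM in scrambled and 43.6, 42.6 and 38.1 CPM in NFIC KD samples, without overlap (1.97-fold lower, log2 fold change −0.98 ± 0.06, adjusted p = 7.39e-10). ISG20, an RNA exonuclease, had 55, 37 and 45 counts against 16, 28 and 18 counts (2.54, 1.503 and 2.10 against 0.776, 1.21 and 0.780 CPM). The highest NFIC KD sample was below the lowest scrambled one (2.19-fold lower, log2 fold change −1.13 ± 0.28, adjusted p = 0.00192). TRIM22, a ubiquitin ligase that restricts several viruses, also fell (42.8 ± 1.8 against 32.4 ± 2.1 CPM, log2 fold change −0.40 ± 0.07, adjusted p = 8.30e-05).

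The remaining effectors that passed were higher. IFI30, a lysosomal thiol reductase used in antigen processing, was at 7.67, 9.22 and 8.73 CPM against 16.5, 13.7 and 14.5 CPM (1.74-fold, log2 fold change 0.80 ± 0.11, adjusted p = 6.28e-06). Its groups did not overlap, but it shares 42.5% of its exon bases with the same-strand gene AC007192.1, whose log2 fold change was −0.04. IFI44 had 10, 10 and 9 counts against 23, 11 and 30 counts (0.462, 0.406 and 0.420 against 1.116, 0.474 and 1.30 CPM). NFIC KD replicate 2 was barely above the scrambled samples, and the call (log2 fold change 1.15 ± 0.40, adjusted p = 0.0188) ended without scrambled replicate 2 or 3 or NFIC KD replicate 1 or 3 (adjusted p = 0.0506 to 0.113) and in DESeq2 (0.0654).

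SAMD9L and SAMD9, paired growth-restricting genes on chromosome 7 whose products limit poxviruses, rose by log2 fold changes of 0.65 ± 0.07 (20.1 ± 0.45 against 31.5 ± 1.3 CPM, adjusted p = 7.16e-07) and 0.28 ± 0.08 (adjusted p = 0.0062). IFI6, a protein of the mitochondria and endoplasmic reticulum, was at 35.6, 33.6 and 33.8 CPM against 41.2, 41.2 and 41.7 CPM, without overlap (1.21-fold, log2 fold change 0.27 ± 0.06, adjusted p = 0.00141). GBP2, a GTPase that attacks the membranes around intracellular microbes, had a log2 fold change of 0.54 ± 0.16 (adjusted p = 0.00834), and without scrambled replicate 3 its adjusted p was 0.0509.

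The calls of EPSTI1 and XAF1 were not firm. EPSTI1 (log2 fold change 0.53 ± 0.22, adjusted p = 0.0491) and XAF1 (0.16 ± 0.06, adjusted p = 0.0399) overlapped between the groups. EPSTI1 lost its call without scrambled replicate 1 or 2 or NFIC KD replicate 2 or 3 (adjusted p = 0.0873 to 0.22, lowest log2 fold change 0.35) and XAF1 without scrambled replicate 2 or 3 or NFIC KD replicate 2 or 3 (adjusted p = 0.0577 to 0.183, lowest log2 fold change 0.11). Both also lost it under upper-quartile normalization (0.0777 and 0.182) and with at least 10 counts asked of every sample (0.0537 and 0.0576), and EPSTI1 in DESeq2 (0.135). XAF1 shares 38.3% of its exon bases with an antisense gene, PRAL.

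RSAD2 (viperin), CMPK2, IFI35 and LY6E were not called, with log2 fold changes of −0.04, 0.03, −0.14 and 0.19 and adjusted p-values of 0.871, 0.851, 0.146 and 0.265. GBP1, IFI27 and IFI44L were too scarce for the test. GBP1 had 1, 1 and 1 counts against 3, 3 and 2 counts, all at or under the floor of 3 counts (0.122 to 0.146 CPM, counting error only), IFI27 had 1, 7 and 3 counts against 11, 12 and 4, and IFI44L had 5, 1 and 3 counts against 2, 3 and 0.

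Set on 1 scale, as mean CPM per kilobase of gene length, the 49 genes spanned a wide range and a few carried most of the signal. In the scrambled samples 6 genes were above 10 CPM per kb, 26 were between 1 and 10 and 17 were below 1. BST2 led with 74.3 ± 1.7 CPM per kb (SD, n = 3), followed by IFI6 with 40.8 ± 1.3, STAT2 with 27.2 ± 2.0, IFITM2 with 13.8 ± 0.45 and IFI16 with 11.9 ± 0.28, and none of these overlapped the next within 1 SD. Further down, most neighbors in the order could not be separated, since 36 of the 48 steps were within 1 SD of each other. After the knockdown the top of the order changed to IFI6 (49.1 ± 0.30 CPM per kb), STAT2 (40.2 ± 2.7) and BST2 (37.7 ± 2.6), of which STAT2 and BST2 were within 1 SD. IFI16 moved from place 5 to place 20 of the 49.

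What the genes shared beyond their names was looked for in their promoters. The ISRE core, searched as GAAANNGAAA on both strands, was present in 23 of the 38 interferon genes with a promoter in the table (60.5%), against 3.57% of all 35116 promoters. It was present in 10 of 17 genes that were higher, 4 of 6 that were lower and 5 of 11 that did not pass, so genes with this element were found on either side of 0. The core of the gamma-activated site, searched as TTCNNNGAA, was in 11 of the 38 (28.9%, against 7.66% of all promoters), IRF1 and IRF9 among them. The short nuclear factor I site TTGGCA was in 7 of the 38 (18.4%, against 12.5%). It was in 6 of the 17 higher genes, 0 of the 6 lower, 0 of the 11 that did not pass and 1 of the 4 not tested. The share of this site among all genes called higher or lower was not determined. Whether it differed by call was not tested. The full and the short nuclear factor I site can overlap, as they do in HERC5. A match is a description of letters, and no match says only that these letters are not in this window.

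The stretches below show genes with an ISRE core that went in different directions, IFIT1, IFIT3 and IFI6 (higher), BST2, IFITM3 and ISG20 (lower) and ISG15 (not called). Capitals mark each ISRE core, found on either strand, and each stretch is written 5′ to 3′ along the strand of the gene, with positions on GRCh38.p14.
IFIT1, chr10:89392503-89392532, + strand: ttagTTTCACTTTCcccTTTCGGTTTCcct
IFIT3, chr10:89327850-89327909, + strand: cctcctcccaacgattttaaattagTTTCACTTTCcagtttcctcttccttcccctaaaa
IFI6, chr1:27672251-27672310, - strand: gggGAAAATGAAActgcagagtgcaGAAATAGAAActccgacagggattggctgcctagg
BST2, chr19:17405738-17405767, - strand: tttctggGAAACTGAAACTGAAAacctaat
IFITM3, chr11:320861-320920, - strand: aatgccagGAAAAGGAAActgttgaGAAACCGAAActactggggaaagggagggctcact
ISG20, chr15:88638937-88638966, + strand: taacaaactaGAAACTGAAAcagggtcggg
ISG15, chr1:1013365-1013424, + strand: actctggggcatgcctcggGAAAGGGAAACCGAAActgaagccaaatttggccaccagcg
The BST2 stretch holds a pair of overlapping ISRE cores and the ISG15 stretch does too, yet BST2 was 1.97-fold lower and ISG15 was not called.

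Around these genes, the rest of the interferon pathway moved in a mixed way. Of 68 further pathway genes listed by role, 48 had a row, 42 were tested, and 14 were higher and 10 lower, with a median log2 fold change of 0.05 and the same background of 29.6% and 30.3%. Of 21 interferon genes listed, 2 had a row and were near 0. IFNA21 had 2 counts in NFIC KD replicate 2 and IFNL1 had 1 count in NFIC KD replicate 3, both under the floor. The other 19, IFNB1 and IFNG among them, had no row in the gene count table, which held no gene with 0 counts in every sample. Of the receptor chains, IFNAR2, which with IFNAR1 binds the type I interferons, was higher (36.4 ± 3.5 against 45.1 ± 0.43 CPM, log2 fold change 0.31 ± 0.07, adjusted p = 0.00129) and IFNGR2, of the interferon gamma receptor, lower (67.9 ± 3.5 against 55.6 ± 3.2 CPM, log2 fold change −0.29 ± 0.06, adjusted p = 0.000751). IFNAR1, IFNGR1 and IL10RB had log2 fold changes of 0.00, 0.02 and 0.09 and did not pass (adjusted p = 0.98, 0.751 and 0.246), with IL10RB at 0.16 and past the threshold without NFIC KD replicate 2 (0.0418). IFNLR1, the interferon lambda receptor, had 1 count in 1 library.

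Directly under the receptors the kinases split. JAK2 was at 38.9, 41.4 and 39.9 CPM in scrambled and 76.02, 72.7 and 80.5 CPM in NFIC KD samples (1.91-fold higher, log2 fold change 0.93 ± 0.06, adjusted p = 1.04e-09). JAK1, which serves both the type I and the gamma receptor, was at 94.5, 83.9 and 93.5 CPM against 50.3, 52.4 and 50.5 CPM (1.77-fold lower, log2 fold change −0.83 ± 0.06, adjusted p = 3.91e-09). Neither overlapped between the groups. The phosphatase gene PTPN6 and the STAT inhibitor PIAS1 were higher too (log2 fold change 0.48 and 0.19), while SOCS1, SOCS3 and TYK2 did not pass (−0.15, 0.11 and 0.11). TYK2 was at 0.20 and passed without NFIC KD replicate 3 (adjusted p = 0.00223).

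**Figure D3:**
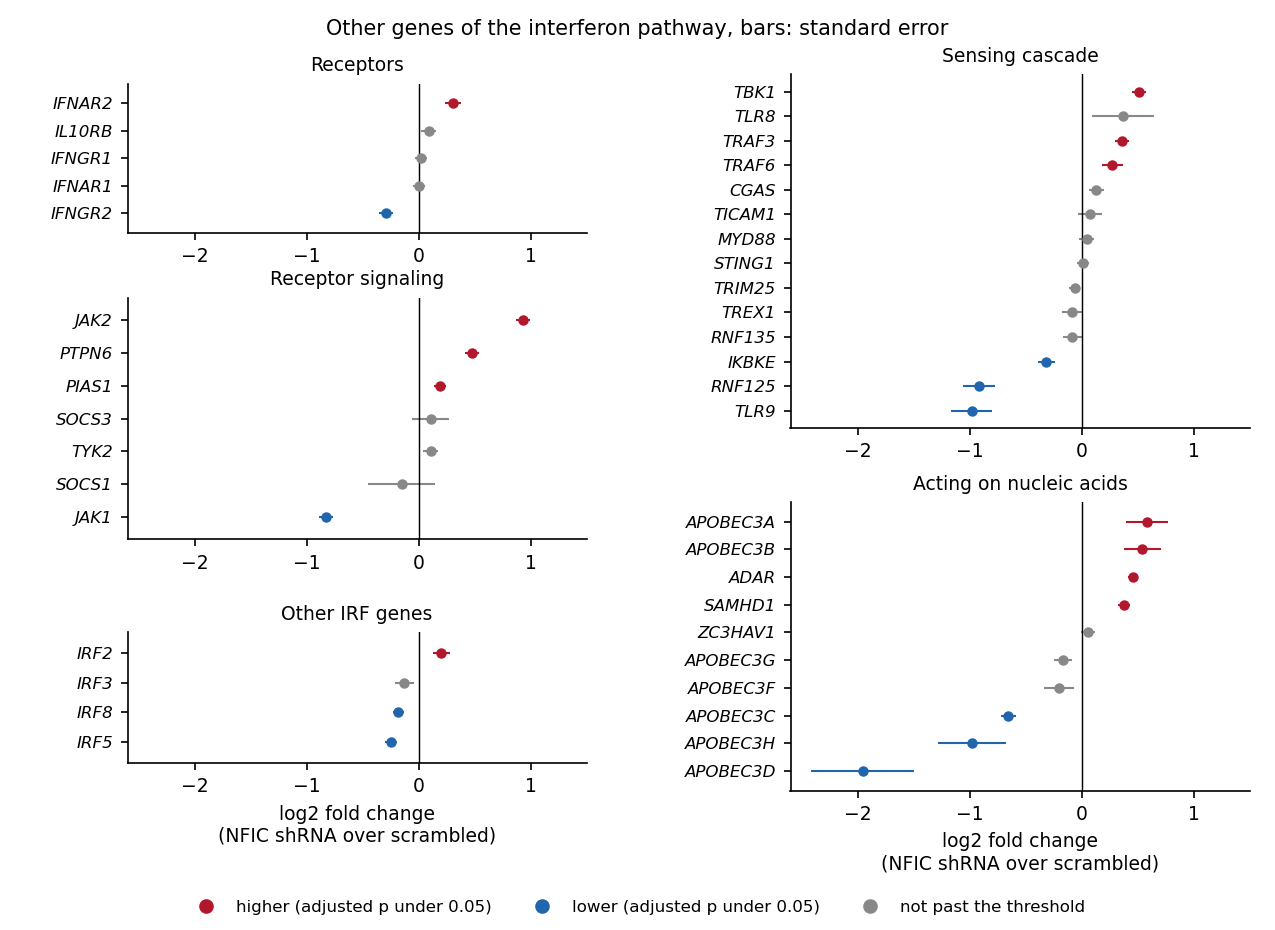
Log2 fold change of NFIC KD over scrambled samples (horizontal axis) with its standard error (bar) for 40 of the 42 further genes of the interferon pathway that were tested, in 5 panels by role. Red marks 12 higher and blue 10 lower genes at an adjusted p under 0.05. JAK2 and JAK1 stand on opposite sides at 0.93 and −0.83. The APOBEC3 genes spread over both sides, from −1.96 for APOBEC3D, which had few counts, to 0.58 for APOBEC3A.

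In the cascade from sensor to interferon, the kinase TBK1 (45.5 ± 0.88 against 64.8 ± 4.3 CPM, log2 fold change 0.51 ± 0.06, adjusted p = 1.99e-06) and the ligases TRAF3 (0.36 ± 0.06, adjusted p = 6.74e-05) and TRAF6 (0.28 ± 0.09, adjusted p = 0.0139) were higher. TRAF6 lost its call without scrambled replicate 3 (0.0595) or NFIC KD replicate 1 (0.0729). The related kinase IKBKE (−0.31 ± 0.08, adjusted p = 0.00224), the DNA receptor TLR9 (−0.98 ± 0.18, adjusted p = 0.000163) and RNF125, a ligase that marks RIG-I for degradation (−0.91 ± 0.14, adjusted p = 3.02e-05), were lower. CGAS and STING1, the other DNA sensing route, had log2 fold changes of 0.13 and 0.01 and did not pass (adjusted p = 0.106 and 0.828), with CGAS at 0.18 and past the threshold without NFIC KD replicate 2 (0.0462). The RNA receptor TLR7 had 7, 11 and 8 counts in scrambled and 1, 1 and 2 in NFIC KD samples and was not tested. In DESeq2 it passed as lower (log2 fold change −2.66, adjusted p = 0.0276). TLR8, also an RNA receptor, did not pass (0.37, adjusted p = 0.257, edgeR). 

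Among the other IRF genes, IRF2 was higher by a log2 fold change of 0.20 ± 0.07 (adjusted p = 0.025), which ended without scrambled replicate 1 (0.0711) or 2 (0.121) or NFIC KD replicate 1 (0.0932) and under upper-quartile normalization (0.0973). IRF5 (−0.25 ± 0.05, adjusted p = 0.000942) and IRF8 (−0.18 ± 0.05, adjusted p = 0.00638) were lower, and IRF3, the factor that MAVS signaling activates, did not pass (−0.13 ± 0.09, adjusted p = 0.216).

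Of the genes that act on nucleic acid, the RNA editing enzyme gene ADAR (log2 fold change 0.46 ± 0.05, adjusted p = 2.14e-07) and SAMHD1, which depletes nucleotides (0.38 ± 0.06, adjusted p = 2.24e-05), were higher. The APOBEC3 cytidine deaminases, a cluster of near copies whose reads may be split between members, moved both ways. APOBEC3A and APOBEC3B were higher (0.58 and 0.54, adjusted p = 0.0124 and 0.0137), and both lost the call without scrambled replicate 3 (0.0631 and 0.05002). APOBEC3A also lost it without NFIC KD replicate 3 (log2 fold change 0.36, adjusted p = 0.0981), and APOBEC3B fell to 0.32 without that library (0.0172). APOBEC3C, APOBEC3D and APOBEC3H were lower (−0.65, −1.96 and −0.98, adjusted p = 3.63e-07, 0.00136 and 0.0109), and the adjusted p of APOBEC3H was 0.0638 in DESeq2. APOBEC3D was scarce and uneven, with 31, 27 and 10 counts in scrambled and 6, 4 and 7 in NFIC KD samples. It dropped out with at least 10 counts asked of every sample.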

How the data were processed

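RNA of GFP-sorted THP-1 cells was made into libraries with the NEBNext Ultra kit and read as pairs. Per the study's methods, the authors trimmed reads with Trim Galore, mapped them to GRCh38 with STAR and counted them per gene with featureCounts on an Ensembl annotation. The deposited table gives these raw counts without normalization, and whether marked duplicates were counted is not given in the sources used here. The authors also deposited a normalized signal (the counts over a DESeq2 size factor), FPKM values, gene lengths, and the log2 fold change, score and p-value columns of their own comparison. The FPKM and comparison columns were not used.

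The members and gene lists were chosen with earlier results of these data known, and so were the promoter motifs. The 3 NFIC shRNA samples were compared with the 3 scrambled samples in edgeR 4.0.16 (R 4.3.3) with TMM, its filter on low counts and the robust quasi-likelihood test. P-values were adjusted over the 19182 genes tested (Benjamini-Hochberg) and called under 0.05. The SE of a log2 fold change is its size over the square root of F. The floor was taken as 3 counts per library and covers counting error only. Values in every sample are given for the called members with the 8 largest rises and 8 largest falls, the sensors, STAT2, IRF1, IRF7, IRF9 and the most abundant members and the JAK genes called. Other values given per sample (HERC6, ISG15 and the scarce members) were added after they were seen. Gene positions are those of GENCODE release 44 (GRCh38). Of the pathway genes counted, 2 are not reported here. Alternatives were other normalizations, DESeq2 1.42.0, limma 3.58.1 on log2(normalized count + 1), other filters, each sample left out and 2 replicate blocks.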

Additional observations from a re-analysis of the deposited data

How the results depend on the processing

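The 22 higher and 10 lower interferon genes became 18 to 22 and 8 to 12 over all alternatives, and the 14 higher and 10 lower pathway genes 10 to 16 and 9 to 11. No interferon gene that was called changed its sign under any of them. Leaving out 1 sample at a time gave 18 to 21 higher and 8 to 10 lower interferon genes. DESeq2 kept 19 and 8 of the calls and added none, and limma kept 22 and 10. Upper-quartile normalization moved the median of all genes from −0.01 to −0.07, kept 19 of the 22 higher genes and added OAS1 and IFI35 to the lower ones (adjusted p = 0.0362 and 0.045). At an adjusted p under 0.01, 18 genes were higher and 8 lower. Of the 10 regulators, USP18 was the 1 that was lower, and 0 were lower in DESeq2, with no filter and at 0.01.

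The same-numbered samples' deviations correlated at 0.0561, −0.0861 and −0.0447, which gave no sign of a pairing by the replicate numbers of the labels. Paired by the numbers in the sample titles, they correlated at 0.0561 and 0.145. The samples left over, scrambled replicate 3 and NFIC KD replicate 2, were paired with each other (0.0267). Such correlations cannot show that the samples were unpaired. With the replicate block, 20 interferon genes were higher and 10 lower (XAF1 at adjusted p = 0.07 and DHX58 at 0.0731 were lost), and 14 and 10 pathway genes. With the block by title numbers, 22 and 10 interferon genes and 14 and 10 pathway genes passed.

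Depth limits TLR3, GBP1, IFI27 and IFI44L, which the filter removed, and makes the values of IFI44, IFIT1, OASL, USP18 and the pathway gene APOBEC3D rest on few counts. IFI27 passed as higher when scrambled replicate 2 or NFIC KD replicate 3 was left out.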
